A study of Mus musculus with 12 samples.

Results

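Langerhans cells (LCs) are the antigen-presenting cells of the epidermis and sit among keratinocytes that are held to each other by cell junctions. The 8 genes described here, out of 32285 in the count tables, encode proteins of those junctions and were taken by their symbols: Epcam, the claudins Cldn1, Cldn4 and Cldn7, occludin (Ocln), the tight junction scaffold Tjp1, E-cadherin (Cdh1) and P-cadherin (Cdh3). Their RNA was compared between LCs and the stages of keratinocyte differentiation, between resting and Ccr7+ LCs, and between diets.

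Single cells of glabrous hind paw epidermis came from 12 wild-type C57BL/6J mice, 1 library per mouse, in the study of painful diabetic neuropathy on a high-fat diet. From an age of 6 to 8 weeks the mice ate a regular diet (RD, 11% fat) or a high-fat diet (HFD, 42% fat, Envigo TD88137) for 10 weeks, and they were 16 to 18 weeks old when sampled. Each diet was fed to 3 males and 3 females, and no drug is named for them. The study describes a glucose tolerance test, with injected glucose, after the 10 weeks of diet. The epidermis was lifted off with dispase and dissociated with TrypLE, so the dermis was not sampled.

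Tight junctions close the space between the uppermost living keratinocytes. Claudins and occludin form their strands, and Tjp1 ties the strands to actin. Adherens junctions hold neighboring cells together through cadherins, with E-cadherin through most of the epidermis and P-cadherin mainly in the basal layer. LCs express Epcam and E-cadherin, bind keratinocytes through the latter, and raise the chemokine receptor Ccr7 when they leave the epidermis for lymph nodes.

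Unique molecular identifiers (UMIs, 1 per captured transcript) numbered 134449247 to 194673581 in a library, with a median of 6577 to 15047.5 per cell. After filtering, 126375 cells remained, of which 119736 fell into 5 keratinocyte classes, 2736 were resting LC-like cells and 2650 stayed without a name. Resting is the name given to LC-like cells that met no list for Ccr7+, proliferating or keratinocyte-transcript cells, and no marker of rest was used. In males 285 of the 1003 resting cells formed a subcluster led by Hspa1a, Hspa1b, Rgs1 and Fos. Pairs of libraries shared between 15 and 70 barcodes, at most 0.564% of the smaller library, and no library was a copy of another. Cells were clustered without the 8 genes and without the other junction genes named below, so the classes do not rest on them. The LC-like clusters carried all 10 LC markers, led by Cd74, H2-Ab1, H2-Aa and Cd207. The study named one of its LC subsets after Epcam, whereas the LC-like classes here were set without that gene. The file headers name Cell Ranger 6.1.0 for males and 7.2.0 for females, so sex and counting software cannot be told apart, and each sex was analysed on its own except in the test of the diet by sex interaction.

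The stretch of 250 bases before the RefSeq start is shown for Epcam, Cldn1 and Cldn4, whose levels differed strongly between LCs and keratinocytes. Sequences are from RefSeq (GRCm38.p6), 5′ to 3′ on the strand of the gene, and capitals mark CAGGTG or CACCTG, the E-box letters that Snai and Zeb repressors of epithelial genes are known to bind and that read alike on the opposite strands.
Epcam, chr17:87635729-87635978 (+ strand): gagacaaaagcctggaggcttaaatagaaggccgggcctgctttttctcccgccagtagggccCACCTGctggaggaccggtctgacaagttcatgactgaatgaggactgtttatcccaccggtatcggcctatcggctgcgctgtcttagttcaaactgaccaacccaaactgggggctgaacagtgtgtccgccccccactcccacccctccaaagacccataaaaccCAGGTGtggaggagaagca
Cldn1, chr16:26371840-26372089 (- strand): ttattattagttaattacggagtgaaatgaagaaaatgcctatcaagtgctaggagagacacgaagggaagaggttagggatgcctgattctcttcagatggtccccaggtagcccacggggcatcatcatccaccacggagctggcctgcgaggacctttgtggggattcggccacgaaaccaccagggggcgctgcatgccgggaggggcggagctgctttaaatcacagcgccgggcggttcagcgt
Cldn4, chr5:134946935-134947184 (- strand): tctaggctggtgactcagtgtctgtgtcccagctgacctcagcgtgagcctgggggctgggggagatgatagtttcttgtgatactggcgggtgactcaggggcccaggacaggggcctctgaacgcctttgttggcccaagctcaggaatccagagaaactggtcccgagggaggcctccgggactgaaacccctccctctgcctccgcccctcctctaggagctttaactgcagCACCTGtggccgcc
The Epcam stretch held CACCTG 187 bases and CAGGTG 19 bases before the start, the Cldn4 stretch held CACCTG 14 bases before it, and that of Cldn1 held neither. Of 32851 promoters of this length in the table, 17.2% held at least 1 of them and 2.06% at least 2. The table had 8 promoters of 6 of the genes, 4 of them with the motif, and none for Cdh1 or Cdh3.

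Levels are given as CPM, the UMIs of a gene per 1000000 UMIs of that cell class in 1 mouse. Epcam, a transmembrane glycoprotein of epithelia that associates with claudins, was higher in resting LC-like cells than in any keratinocyte class. It lies on chromosome 17 (GRCm38, 87635979 to 87651129, + strand). In males its level in resting LC-like cells had a lowest, median and highest value of 970, 1042 and 1266 CPM over the 6 mice, and in basal keratinocytes of 55.2, 69.1 and 74.4. In females these were 828, 903 and 1064 in resting LC-like cells and 75.7, 89.9 and 106 in basal keratinocytes. The ranges were far apart in both sexes. The log2 difference from basal cells was 3.90 (SE 0.07, adjusted p = 2.88e-61 by edgeR) in males and 3.37 (SE 0.06, adjusted p = 6.3e-24 by edgeR) in females, higher in 6 of 6 mice of each sex. Migratory keratinocytes, the cells marked by Krt79 and Cst6, were the highest keratinocyte class, at 457 ± 25.5 (SD, n = 6) in males and 571 ± 51.5 in females. They were above basal cells by a log2 difference of 2.61 and 2.70 and did not overlap with resting LC-like cells or any other keratinocyte class.

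Among the claudins, Cldn1 ran with Epcam and Cldn4 ran the other way. Cldn1, which the epidermal barrier needs, lies on chromosome 16 (26356642 to 26371841, − strand). Its level in resting LC-like cells was 389, 439 and 517 CPM (lowest, median, highest) in males against 40.9, 71.6 and 81.0 in basal cells. In females it was 705, 741 and 808 against 17.1, 22.9 and 34.1. The log2 difference was 2.63 (SE 0.08, adjusted p = 2.37e-45 by edgeR) in males and 4.97 (SE 0.10, adjusted p = 2.67e-23 by edgeR) in females. Migratory cells were again the highest of the keratinocyte classes, at 184 ± 31.6 and 177 ± 21.3 CPM, and T cell-like cells had 23.7 and 16.3.

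Cldn4, a claudin of differentiated epithelium, lies on chromosome 5 (134945119 to 134946934, − strand). It was low in resting LC-like cells, at 10.8 ± 4.16 CPM in males and 3.81 ± 1.63 in females. Both lay under its level in T cell-like cells, 31.5 and 33.6. Suprabasal keratinocytes held 259, 368 and 479 CPM (lowest, median, highest) in males and 155, 223 and 287 in females. Resting LC-like cells were below basal cells by a log2 difference of -2.91 (SE 0.17, adjusted p = 1.99e-26 by edgeR) in males and -4.63 (SE 0.13, adjusted p = 3.41e-20 by edgeR) in females. Cldn7, an Epcam partner in other epithelia (chromosome 11, 69964779 to 69967885, + strand), was scarce everywhere, with at most 6.43 CPM on average in any keratinocyte class. Resting LC-like cells held 9 UMIs of it in all males and 10 in all females, too few to tell expression from free RNA.

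Tjp1 and Ocln, the scaffold and the strand protein, were detected in both lineages. Tjp1 (chromosome 7, 65296165 to 65527781, − strand) had 70.0, 80.0 and 98.0 CPM (lowest, median, highest) in resting LC-like cells of males and 167, 191 and 218 in females. Basal cells held 18.8, 22.9 and 25.7 in males and 49.4, 56.0 and 65.5 in females, with no overlap. The log2 difference was 1.76 (SE 0.11) in males and 1.78 (SE 0.07) in females. Tjp1 overlaps the annotated genes Gm44792, Gm44794 and Gm44795, the last on the opposite strand, and whether the counting used strand is not stated.

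Ocln (chromosome 13, 100496507 to 100552718, − strand) was 22.8, 31.5 and 38.6 CPM (lowest, median, highest) in resting LC-like cells of males, above basal cells at 5.08, 11.4 and 14.8. In females the ranges overlapped, 39.1, 54.7 and 73.3 against 34.0, 45.5 and 59.7. The log2 difference was 1.46 (SE 0.18, adjusted p = 1.22e-11 by edgeR) in males. In females it was 0.35 (SE 0.13, adjusted p = 0.0208 by edgeR), with higher values in 4 of 6 mice. Without female RD replicate 2 the adjusted p was 0.0930, and without female HFD replicate 2 it was 0.196.

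Cdh3, the cadherin of the basal layer, was near absent from resting LC-like cells. The gene (chromosome 8, 106510891 to 106557297, + strand) held 21.7, 25.8 and 27.7 CPM (lowest, median, highest) in basal cells of males and 82.4, 104 and 114 in females. Resting LC-like cells held 1.02 and 1.49 on average, from 4 and 17 UMIs in all. T cell-like cells held 4.06 from 2 UMIs in males, too few to order the 2 classes, and 23.9 from 43 UMIs in females. The log2 difference of resting LC-like from basal cells was -4.75 (SE 0.38) in males and -6.03 (SE 0.16) in females.

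For Cdh1, which holds LCs to keratinocytes, the order of LC-like and basal cells differed between the sexes. It lies beside Cdh3 on chromosome 8 (106603351 to 106670246, + strand). Its level in resting LC-like cells overlapped between the sexes, with 191, 222 and 256 CPM (lowest, median, highest) in males and 150, 199 and 215 in females. Basal cells differed, at 84.8, 101 and 113 in males and 346, 405 and 508 in females. Resting LC-like cells were therefore above basal cells in 6 of 6 males, with a log2 difference of 1.01 (SE 0.07, adjusted p = 3.15e-21 by edgeR). They were below them in 6 of 6 females, with a log2 difference of -1.10 (SE 0.08, adjusted p = 2.63e-12 by edgeR). Zeb1, the regulator with the largest excess in male resting LC-like cells, was at 105 CPM there in males and 1315 in females. Sex and counting software cannot be told apart for either gene, and no link between Zeb1 and Cdh1 was tested.

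Of the 8 genes, 7 passed the test between resting LC-like and basal cells in males (5 higher, 2 lower in LC-like cells) and 8 in females (4 higher, 4 lower). Of all genes tested, 71.7% passed in males and 79.2% in females, with a median log2 difference of -0.17 and -0.16, so the number that passed says little and the sizes carry the description. Scaling by library totals in place of TMM moved the median of all genes by 0.11 in males and changed no direction among the 8.

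**Figure D1:**
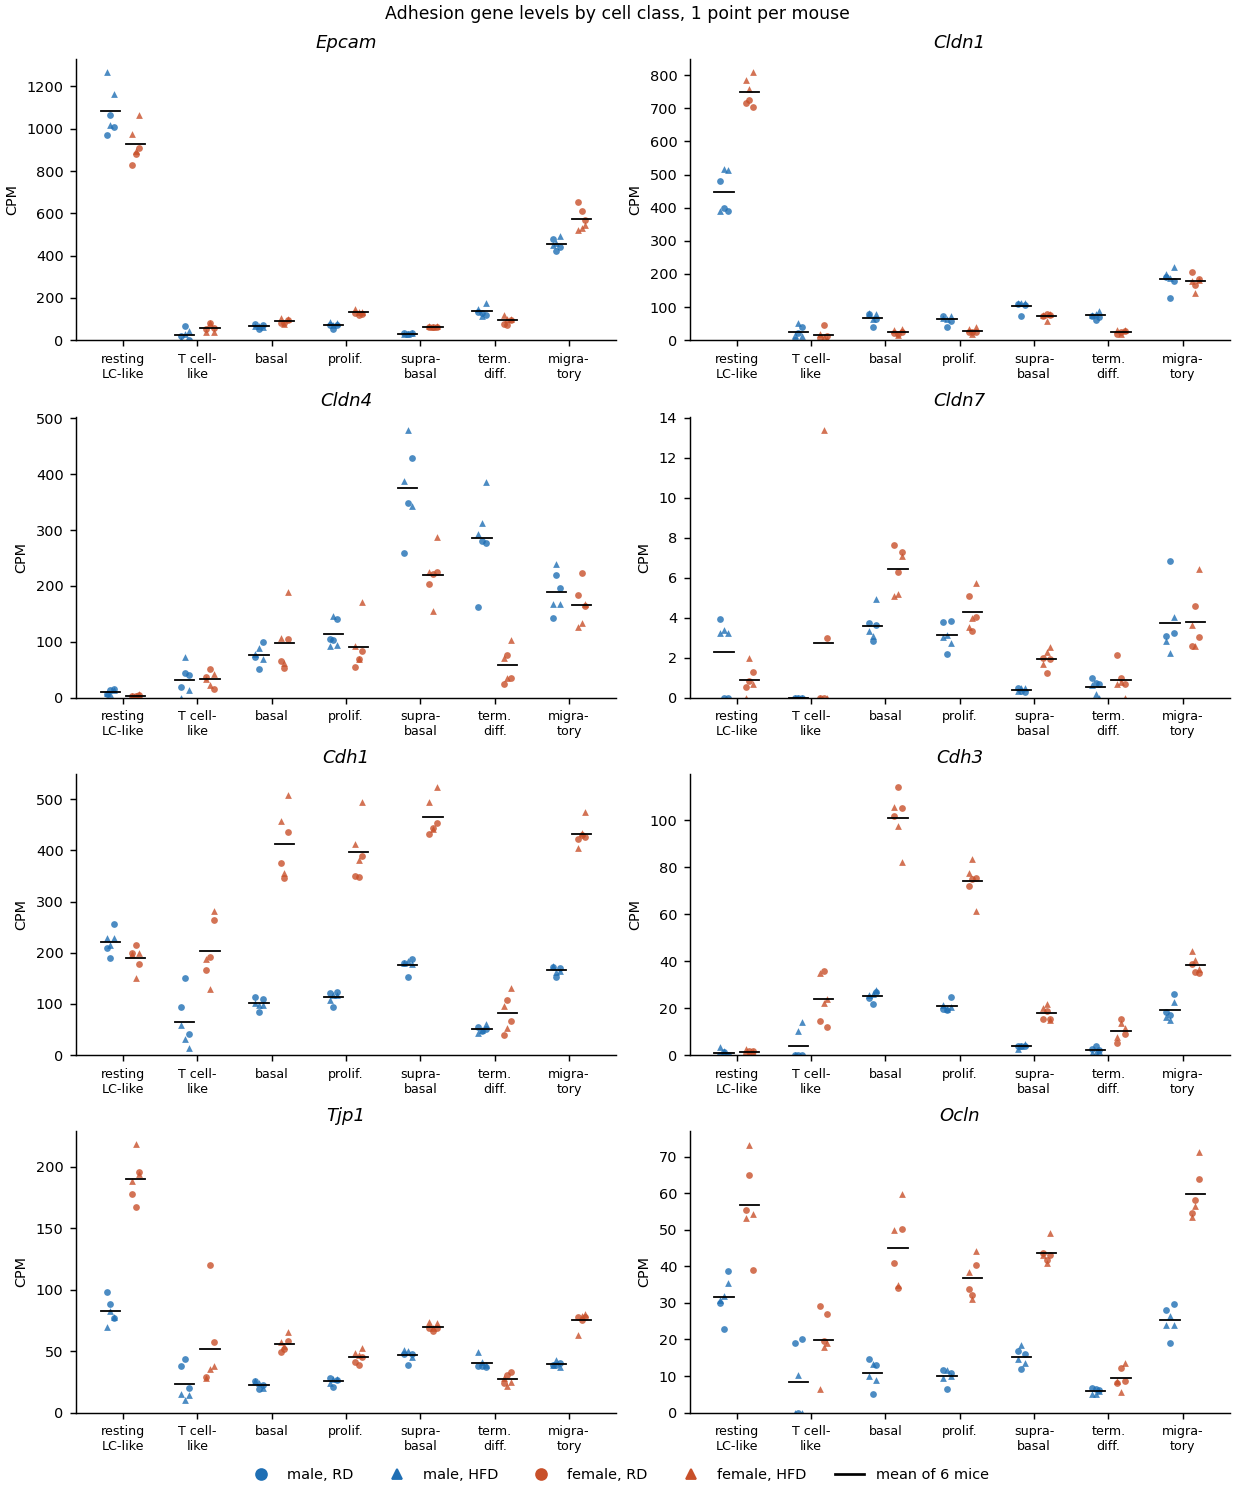
CPM of each gene (vertical axis, linear) in 7 cell classes (horizontal axis), 1 point per mouse, circles for RD and triangles for HFD, blue for males and orange for females, with the mean of 6 mice as a line. Epcam and Cldn1 points of resting LC-like cells stand above all keratinocyte classes in both sexes, with migratory keratinocytes second, while Cldn4 is highest in suprabasal cells and Cdh3 in basal cells.

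Free RNA from broken keratinocytes can reach LC droplets, so the levels were set against keratinocytes of the same mouse. The sum of 10 keratinocyte markers in resting LC-like cells was 2.85% of the keratinocyte level in males and 1.97% in females. An LC-like subcluster named by these same 10 markers had been kept out of the resting class, so their low level was partly set in advance. Epcam was at 1476% and 875% on the same scale, Cldn1 at 490% and 1333%, Tjp1 at 217% and 312%, and Ocln at 238% and 137%. Cdh1 was at 154% and 44.7%, many times the marker level in both sexes. Cldn4 stood at 4.18% ± 1.66 (SD, n = 6) and 2.32% ± 0.609. Cdh3 stood at 10.5% ± 14.1 in males, from 4 UMIs, and at 3.14% ± 1.48 in females. T cell-like cells, from which none were removed in this way, had a higher marker level of 14.5% and 34.0%. Their Epcam was at 36.6% and 55.4% and their Cdh1 at 47.9% and 47.2%. T cells of mouse epidermis are known to express E-cadherin, so they are no reference without Cdh1. In CPM, Cdh1 in T cell-like cells was 65.3 ± 50.6 in males and 204 ± 58.3 in females, so in females resting LC-like cells, at 190 ± 22.8, were not above them. High doublet scores made up 5.07% of T cell-like cells in males and 12.5% in females, against 0.598% and 1.79% of resting LC-like cells. How much Cdh1 such cells added to the T cell-like level was not tested. After that removal resting LC-like cells held far less of the keratinocyte markers. How much of their Cdh1 was free RNA was not tested.

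**Figure D2:**
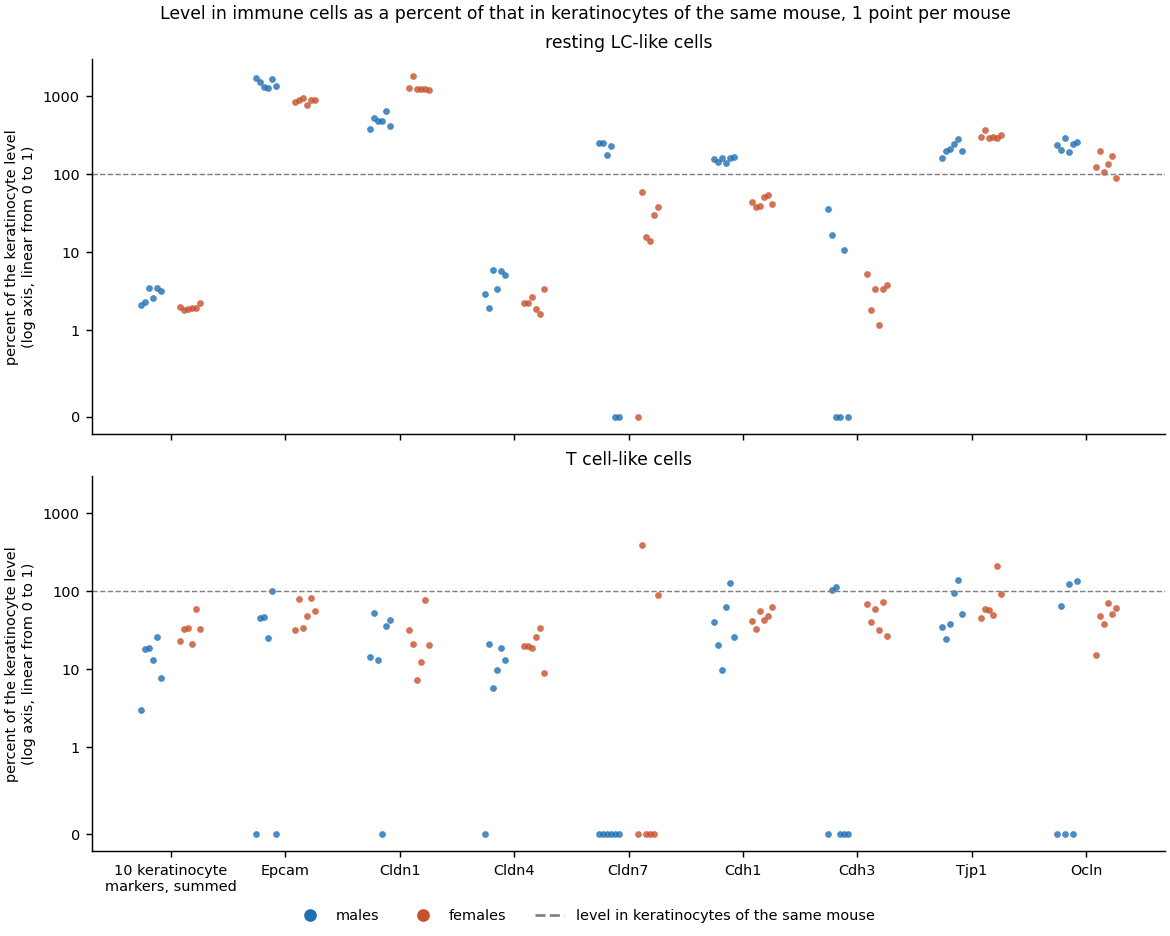
Level in resting LC-like cells (upper panel) and T cell-like cells (lower panel) as a percent of the level in keratinocytes of the same mouse (vertical axis, log above 1 and linear below), 1 point per mouse, for 10 summed keratinocyte markers and the 8 genes (horizontal axis). In LC-like cells Epcam, Cldn1, Tjp1 and Ocln lie mostly above the dashed 100% line while the markers lie near 2.85% in males and 1.97% in females, and in T cell-like cells the means of Epcam and Cdh1 lie below the line.

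The share of cells with at least 1 UMI was taken as a measure per cell. Resting LC-like cells had a median of 4005 UMIs in males and 6264 in females, and T cell-like cells 1476 and 3184.5. Epcam was seen in 95.1% of resting LC-like cells of males and 96.9% of females (mean of 6 mice), against 4.35% and 17.1% of T cell-like cells. After all cells were thinned to 1500 UMIs these were 76.4% and 72.3% against 2.13% and 6.84%. Cdh1 was seen in 57.7% and 64.5% of resting LC-like cells, thinned 28.0% and 23.9%, against 8.54% and 27.0% of T cell-like cells, thinned 8.96% and 13.4%. Thinning kept 990 of 1003 male and 1702 of 1733 female resting LC-like cells, and 108 of 217 and 313 of 336 T cell-like cells.

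Ccr7+ LC-like cells, which also led in Ccl22, Ccl17 and Fscn1, were few, 39 in females and 15 in males. In females, Epcam, Cldn1, Cdh1 and Tjp1 were lower in them than in resting LC-like cells, and no difference was found for Ocln. Epcam was 126, 392 and 352 CPM in the RD females and 415, 261 and 558 in the HFD females, all 6 below the resting cells of the same mouse. The log2 difference was -1.62 (SE 0.23, adjusted p = 2.42e-09 by edgeR). This and the other tests of Ccr7+ cells used the 4 females with at least 5 such cells, without RD replicate 3 and HFD replicate 3. Cdh1 was 21.1, 0 and 0 in the RD females and 99.6, 0 and 50.8 in the HFD females, again below the resting cells in all 6. Its log2 difference was -2.63 (SE 0.47, adjusted p = 2.8e-06 by edgeR), and -4.92 without HFD replicate 1, which held most of its UMIs among the tested mice. The mean over the 6 females, 28.6 CPM from 8 UMIs, was below that of T cell-like cells, 204. With so few UMIs Cdh1 entered the test through its counts in resting cells, so its p-value is not read as support.

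Cldn1 differed less, although differences between genes were not tested. It was 506, 470 and 431 CPM in Ccr7+ cells of the RD females and 415, 360 and 1370 in the HFD females, lower than in resting cells in 5 of 6 mice. The highest value, from HFD replicate 3 with 3 such cells, was not in the test. The log2 difference was -0.79 (SE 0.21, adjusted p = 0.00346 by edgeR). With high doublet scores removed it was -0.81, with an adjusted p of 0.0528. Tjp1 was lower by a log2 difference of -2.07 (SE 0.43, adjusted p = 6.79e-05 by edgeR) and stood at 78.0 ± 71.0 CPM (SD, n = 6). It was below the resting cells in 5 of 6 mice, and the sixth, HFD replicate 3 at 203 CPM, was again not in the test. With 16 UMIs in all, Tjp1 could also enter the test through its counts in resting cells, so its p-value is not read as support. For Ocln the log2 difference was -0.08 (SE 0.52, adjusted p = 0.952 by edgeR), an error too wide to say that it was unchanged.

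Of all genes tested 15.8% passed, 419 higher and 615 lower, with a median log2 difference of -0.25. The 5 genes tested had enough counts through resting cells, where they are high, and Ccr7+ cells of females held 8 UMIs of Cdh1, 16 of Tjp1 and 15 of Ocln, so the number that passed is not read as a result. Cldn4 and Cldn7 had 1 UMI each and Cdh3 had 0 among the 265126 UMIs of female Ccr7+ cells. Epcam was seen in 27 of 39 of the female cells, Cldn1 in 31 of 39 and Cdh1 in 3 of 39 (7.69%, exact 95% interval 1.62 to 20.9%). The interval treats cells pooled over mice as independent and leaves out the spread between mice. High doublet scores were more frequent in Ccr7+ than in resting LC-like cells, 20.5% against 1.79% in females and 33.3% against 0.598% in males. Without these cells Epcam, Cdh1 and Tjp1 still passed the test in females. RD replicate 1, with high scores in 42.9% of its 7 Ccr7+ cells, then fell under the limit of 5 cells. Cdh1 moved to a log2 difference of -10.43. Both Cdh1 and Tjp1, with few UMIs in Ccr7+ cells, could enter the test through resting cells, so their passes are not read as support.

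The male Ccr7+ cells were too few for a test. They held 9 UMIs of Epcam and 12 of Cldn1 among 63714, a pooled level of 141 and 188 CPM against 1078 and 447 in resting LC-like cells. Epcam was lower in 5 of the 5 males that had such cells. Cdh1 had 0 UMIs in the 15 male cells, which allows up to 47.1 CPM and makes it at least 4.65-fold lower than the pooled resting level of 219 (floor of 3 UMIs over the group, counting error only).

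**Figure D3:**
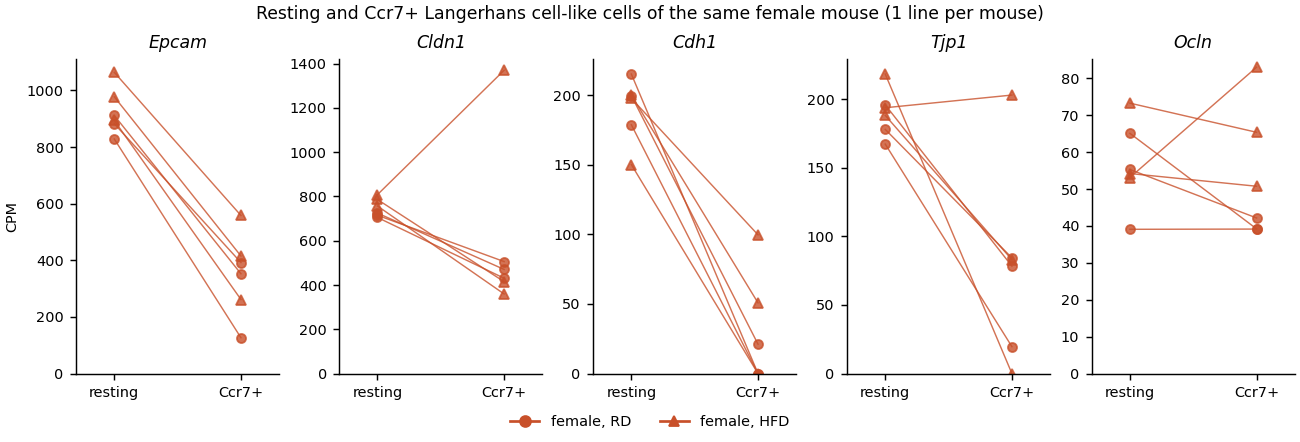
CPM (vertical axis, from 0) of 5 genes in resting and Ccr7+ LC-like cells of the 6 female mice, 1 line per mouse, circles for RD and triangles for HFD. The Epcam and Cdh1 lines fall in all 6 mice, and the Cldn1 and Tjp1 lines fall in 5 of 6.

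Along keratinocyte differentiation the genes moved in different directions. From basal to suprabasal cells, Cldn1 was higher by a log2 difference of 0.94 in males and 1.92 in females and Cldn4 by 2.60 and 1.59. Cdh1 was higher by 1.12 and 0.50 on the log2 scale, while Cdh3, the basal cadherin, was lower (-2.44 and -2.19). Epcam was lower as well, with a log2 difference of -0.81 in males and -0.17 in females, the latter with an adjusted p of 0.00152 by edgeR, and 0.0734 by DESeq2. All 8 genes passed in both sexes (5 higher, 3 lower), where 85.2% of all genes passed in males and 81.4% in females. Scaling by library totals shifted the median of all genes by -0.31 and -0.32. With it Ocln of females, 0.29 by TMM, turned to -0.028 and was not called (adjusted p = 0.707 by edgeR), leaving 4 higher and 3 lower in females, while Epcam of females moved from -0.17 to -0.49 and Cdh1 of females from 0.50 to 0.18. With 10% mitochondrial UMIs Epcam of females was -0.40.

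Terminally differentiated keratinocytes, marked by Flg and Lor, held more Epcam and less Cdh1 than suprabasal cells. The log2 difference of Epcam was 3.34 in males and 2.11 in females, and that of Cdh1 -0.60 and -1.04. Cldn4 was higher in males, with a log2 difference of 0.79, and lower in females, with -0.51. With cells of up to 10% mitochondrial UMIs Cldn4 of females turned to 1.94 (adjusted p = 9.56e-10 by edgeR) and Cdh1 of females to 0.087 (adjusted p = 0.171 by edgeR). In that setting the female class joined a cluster of 1346 cells, led by Wfdc21, Hrnr, Wfdc17 and Flg, and a cluster of 1087 cells led by Lce1 genes. Its make-up thus differed from that of the 1275 cells used above. Without the mouse block Cldn4 of females no longer passed (adjusted p = 0.0683 by edgeR). Here 6 of 8 genes passed in males (5 higher, 1 lower; 70.1% of all genes) and 5 of 8 in females (2 higher, 3 lower; 57% of all genes). The values also depended on the scaling. With library totals the median of all genes moved by -1.19 and -1.55, Epcam then differed by 2.14 and 0.54, Cdh1 by -1.80 and -2.60, and Cldn4 of females by -2.06. In males Cldn4 turned to -0.41, Cldn1 from 0.73 to -0.47 and Tjp1 from 0.98 to -0.22, and in females Cdh3 turned from 0.73 to -0.82. Cdh3 of females also turned to -0.62 with 10% mitochondrial UMIs and to -0.062 with high doublet scores removed, where Cldn4 of females was -1.16 and Cdh1 of females -2.61. The split with library totals was 1 higher and 6 lower in males and 1 higher and 7 lower in females. High doublet scores made up 21.1% of these cells in males and 22.3% in females.

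Migratory keratinocytes differed from basal cells in Epcam, as given above, and in Cldn1, whose log2 difference was 1.28 in males and 2.91 in females. Cldn4 was higher by 1.14 and 0.92 on the log2 scale, and Ocln by 1.08 and 0.46. With 20 principal components Cldn4 of females turned to -0.22 (adjusted p = 0.391 by edgeR) and Ocln of females was 0.17 (adjusted p = 0.0717 by edgeR), while Cldn4 of males was 0.59. Cdh3 was lower (-0.55 and -1.34), with -0.60 in females with 20 principal components. Of the 8 genes, 7 passed in males (6 higher, 1 lower; 64.9% of all genes) and 7 in females (5 higher, 2 lower; 62.1%). In proliferating against basal cells Cdh3 was lower, with a log2 difference of -0.37 in males and -0.44 in females. Epcam was higher in females (0.54, adjusted p = 6.29e-08 by edgeR), with 0.0091 in males (adjusted p = 0.876 by edgeR). Cldn4 was higher in males (0.49), but with high doublet scores removed it was 0.053 (adjusted p = 0.204 by edgeR), and Cldn7 was lower in females (-0.58). In all, 5 of 8 genes passed in males (2 higher, 3 lower; with library totals 3 higher, 2 lower; 61.6% of all genes) and 6 of 8 in females (2 higher, 4 lower; 65.5%).

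Levels also varied inside the classes, given here as a description. In females the basal cluster led by Krt5 and Krt14 (11997 cells) had 266 ± 25.3 CPM of Cdh1, and the basal cluster led by Ifi202b, Igfbp3 and Nrg1 (4633 cells) had 692 ± 59.1. Epcam was 68.1 in the first and 133 in the second. Among male suprabasal clusters Cldn4 went from 155 in the one led by Krt9, through 305, to 685 ± 126 in the one led by Wfdc17, Slurp1 and Sprr1b. In females its suprabasal levels ran from 40.6 to 481, the highest again in the cluster led by Wfdc17 and Sprr1b. A female cluster without a name, led by Krt15 and Krt17, had 286 ± 19.0 CPM of Epcam. A further 258 male and 309 female LC-like cells carried keratinocyte transcripts, with high doublet scores in 95.3% and 96.4%, and were kept out of the resting class. Proliferating LC-like cells, 42 in males and 37 in females, had 899 and 773 CPM of Epcam.

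Other genes of the pathway were taken from lists of tight junction, adherens junction, Epcam partner, regulator and E-cadherin receptor genes. Between resting LC-like and basal cells, 3684 of all 11579 genes tested were higher and 4622 lower in males, and 4738 higher and 5788 lower of 13293 in females. Between resting LC-like and basal cells, the tight junction list had 5 higher and 10 lower of 18 tested in males and 6 higher and 12 lower of 21 in females. Marveld3 and Cldn3 had 0 UMIs in resting LC-like cells of both sexes. The adherens junction list had 6 higher and 9 lower of 17 in males and 7 higher and 11 lower of 18 in females. Its largest change was in Cdh13, a cadherin without a cytoplasmic tail, lower (log2 difference of -6.47 in males and -8.27 in females). Next came Pvr in males, a nectin-like adhesion protein, higher by 4.37, and Ajuba in females, lower (-5.96).

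Partners and proteases of Epcam split, with 5 higher and 4 lower of 14 in males and 6 higher and 4 lower of 14 in females. Spint1, an inhibitor of the membrane protease matriptase that cleaves Epcam, was at 199 CPM in resting LC-like cells of males, against 15.3 in basal cells. Among regulators of epithelial identity 1 was higher and 10 lower of 12 in males, and 2 higher and 11 lower of 14 in females. Zeb1 was higher by 9.83 and 9.63 on the log2 scale, and Ovol2, a repressor of Zeb1, had 0 UMIs in resting LC-like cells, against 7.91 and 25.4 CPM in basal cells. Of the receptors for E-cadherin, Itgb7 was at 81.5 and 46.7 CPM in resting LC-like cells and at 222 and 130 in T cell-like cells.

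The list genes tested in female Ccr7+ cells had to have enough counts, which some had through resting cells alone, and all genes tested also leaned lower (419 higher and 615 lower of 6562, 15.8% in all), so their numbers are not read as a result. Of the tight junction list, Lsr was at 43.2 ± 40.4 CPM (SD, n = 6) in Ccr7+ cells and 172 ± 26.2 in resting cells. Marveld2, at 42.6 ± 7.05 CPM in resting cells, had 0 UMIs in Ccr7+ cells, which allows up to 11.3 CPM, and could enter the test through resting cells alone. The log2 differences that follow are given as a description, since these genes too could enter the test through resting cells alone. Those of the adherens junction genes that passed were -2.22 for Afdn, -2.13 for Ctnnd1 and -0.81 for Cadm1. Of the partners of Epcam, Spint1 (-2.19) and Cd9 (-0.61) were lower, while Spint2 was higher by 0.99. Of the regulators Zeb1 was lower (-1.12). Itgb7 also had 0 UMIs in Ccr7+ cells.

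Between suprabasal and basal cells, 5406 of all 13014 genes tested were higher and 5680 lower in males, and 5830 higher and 6422 lower of 15048 in females. The tight junction list had 12 higher and 7 lower of 20 in males and 11 higher and 9 lower of 22 in females, with Cgn (cingulin, a cytoplasmic plaque protein) higher by 4.36 and 3.75 on the log2 scale. The adherens list had 11 higher and 6 lower of 18 in males and 11 higher and 5 lower of 18 in females, with Nectin4 higher by 3.60 and 4.17. The partners of Epcam had 10 higher and 3 lower of 14 in males and 12 higher and 2 lower of 14 in females. Among regulators 6 were higher and 5 lower of 12 in males and 7 higher and 6 lower of 14 in females, with Grhl1, an activator of barrier genes, higher by 3.72 and 2.62 and Snai2 lower (-2.94 and -2.99). In terminally differentiated against suprabasal cells the tight junction list had 9 higher and 5 lower of 19 in males and 10 higher and 6 lower of 21 in females, and the adherens list 5 higher and 9 lower of 17 and 3 higher and 11 lower of 18. All genes had 3914 higher and 4684 lower of 12273 in males and 3456 higher and 4281 lower of 13574 in females. In migratory against basal cells the tight junction list had 18 higher and 3 lower of 23 in males and 11 higher and 4 lower of 22 in females, beside 4002 higher and 3825 lower of 12056 and 4310 higher and 4006 lower of 13393 among all genes.

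Across 9 classes, the means of Epcam and Cldn1 ran together (Pearson r of 0.87 in males and 0.90 in females), as did Cldn1 and Tjp1 (0.84 and 0.80), while Epcam and Cldn4 ran apart (-0.56 and -0.64). These classes share libraries and differ in depth, so the values are descriptive. The genes most like Epcam over the same classes, among 9997 genes, were Cracr2b (mean r of 0.931), Clmp (0.912) and Arhgap24 (0.884). Those most like Cldn4 were Hspb1 (0.990), Ggt6 (0.979) and Ap1m2 (0.978), and those most like Cdh3 were Lama5 (0.978), Matn2 (0.976) and Etv4 (0.973).

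HFD was then set against RD within each sex. In resting LC-like cells Epcam was 970, 1065 and 1008 CPM in RD males and 1266, 1019 and 1166 in HFD males. In females it was 828, 882 and 911 on RD and 977, 894 and 1064 on HFD. The diets overlapped in both sexes. The log2 change was 0.17 (SE 0.12, adjusted p = 0.745 by edgeR) in males and 0.14 (SE 0.09, adjusted p = 0.541 by edgeR) in females, and its difference between the sexes was 0.00 with an adjusted p of 1.00.

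Cldn1 was 481, 398 and 390 in RD males and 389, 517 and 515 in HFD males, with a log2 change of 0.14 (SE 0.14, adjusted p = 0.860 by edgeR). In females it was 715, 725 and 705 on RD and 786, 757 and 808 on HFD, with a log2 change of 0.11 (SE 0.08, adjusted p = 0.616 by edgeR). The female diets did not overlap for Cldn1, as for 18.2% of all genes tested there. Cdh1 was 209, 191 and 256 in RD males and 228, 216 and 229 in HFD males, and 200, 215 and 179 in RD females and 198, 150 and 200 in HFD females. Its log2 change was 0.03 (SE 0.14, adjusted p = 0.978 by edgeR) in males and -0.13 (SE 0.12, adjusted p = 0.700 by edgeR) in females. Tjp1 was 98.0, 88.7 and 77.2 in RD males and 70.0, 82.5 and 77.4 in HFD males, and 178, 167 and 196 in RD females and 188, 218 and 194 in HFD females, with overlap in both sexes. Its log2 change was -0.23 (SE 0.18, adjusted p = 0.797 by edgeR) and 0.13 (SE 0.11, adjusted p = 0.678 by edgeR).

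**Figure D4:**
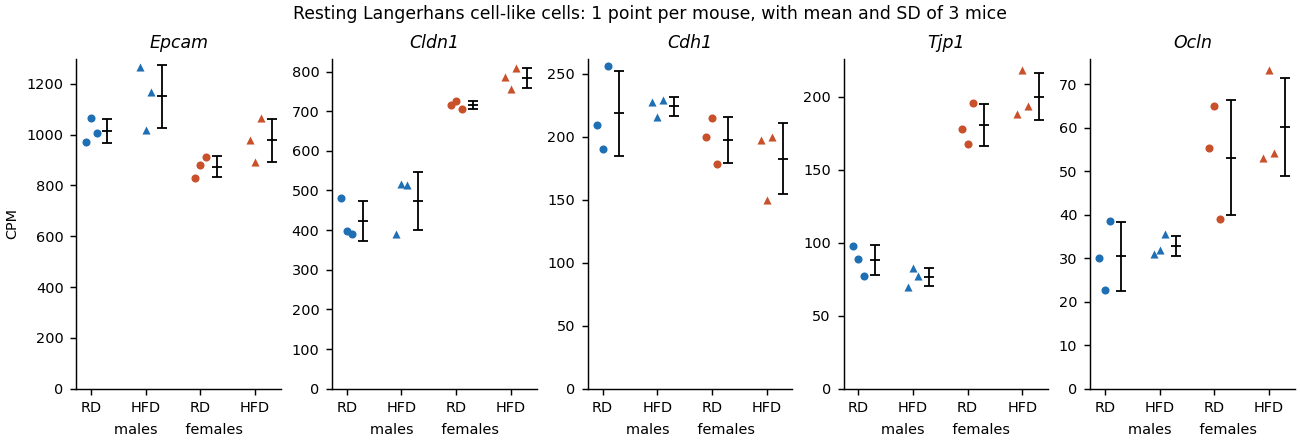
CPM (vertical axis, from 0) of 5 genes in resting LC-like cells by sex and diet, 1 point per mouse, with the mean and SD of 3 mice beside the points. RD and HFD overlap in every panel except Cldn1 of females, where RD runs from 705 to 725 and HFD from 757 to 808.

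In all classes together, 0 of 44 tests of the 8 genes passed in males and 0 of 44 in females by edgeR. Unadjusted, 7 tests of males and 4 of females had a p under 0.05, and DESeq2 called 3 and 1. For DESeq2 the share of all genes called is not given here, so its counts are not read as a result. Of the 7 in males 5 were in terminally differentiated cells, where 32.1% of all genes had such a p, against 4.76 to 9.45% in the other male classes and 7.69 to 21.8% in the female classes. Of all genes tested in males, 0.216% passed in resting LC-like, 0.0152% in suprabasal and 5.22% in terminally differentiated cells, and 0% in the other 3 classes. In females 1.32% passed in resting LC-like, 0.928% in basal, 1.7% in proliferating, 3.14% in suprabasal and 0.645% in migratory cells, and 0% in terminally differentiated cells. The changes lay between -0.76 and 0.73 on the log2 scale in males, with 36 above and 8 below 0, and between -0.45 and 0.66 in females, with 30 above and 14 below 0. The medians of all genes by class lay between -0.034 and 0.00053 in males and between -0.0017 and 0.029 in females. Library totals moved these medians by -0.28 to 0.019 in males and by 0.0037 to 0.19 in females, so the signs of small changes can depend on the scaling. The groups did not overlap in 6 tests of males, 5 of them in terminally differentiated cells, and in 5 tests of females. Of all genes, 30.1% did not overlap in male terminally differentiated cells, 10.1 to 16.2% in the other male classes and 10.9 to 26.3% in the female classes. Whether the diet effect differed between the sexes was tested 45 times and passed in 0 by edgeR (5 tests had an unadjusted p under 0.05, beside 7.52 to 27.2% of all genes by class), with 1 call by DESeq2. Of all genes, 0.0347% passed that test in basal, 0.0208% in proliferating, 1.19% in suprabasal, 0.114% in migratory and 0.709% in terminally differentiated cells, and 0% in resting LC-like cells. Ccr7+ cells had too few cells per mouse for a diet test.

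The value nearest to the threshold, named after it was seen, was Cldn4 in terminally differentiated cells of males. It was 163, 281 and 276 CPM on RD and 292, 312 and 387 on HFD (adjusted p = 0.0597 by edgeR). The same gene and class passed with DESeq2 (adjusted p = 0.0140), with no filter on low counts (adjusted p = 0.00216 by edgeR) and without male RD replicate 3 (adjusted p = 0.0217 by edgeR). Under the other alternatives, and with any other male left out, it was not called. The diets did not overlap, as in 5 of 7 tests of the 8 genes in this class and 30.1% of all genes there, where 5.22% of all genes passed. Scaling by library totals moved the median of all genes in that comparison by -0.28. In females, terminally differentiated cells held 24.8, 76.3 and 35.8 CPM of Cldn4 on RD and 70.1, 34.9 and 104 on HFD.

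**Figure D5:**
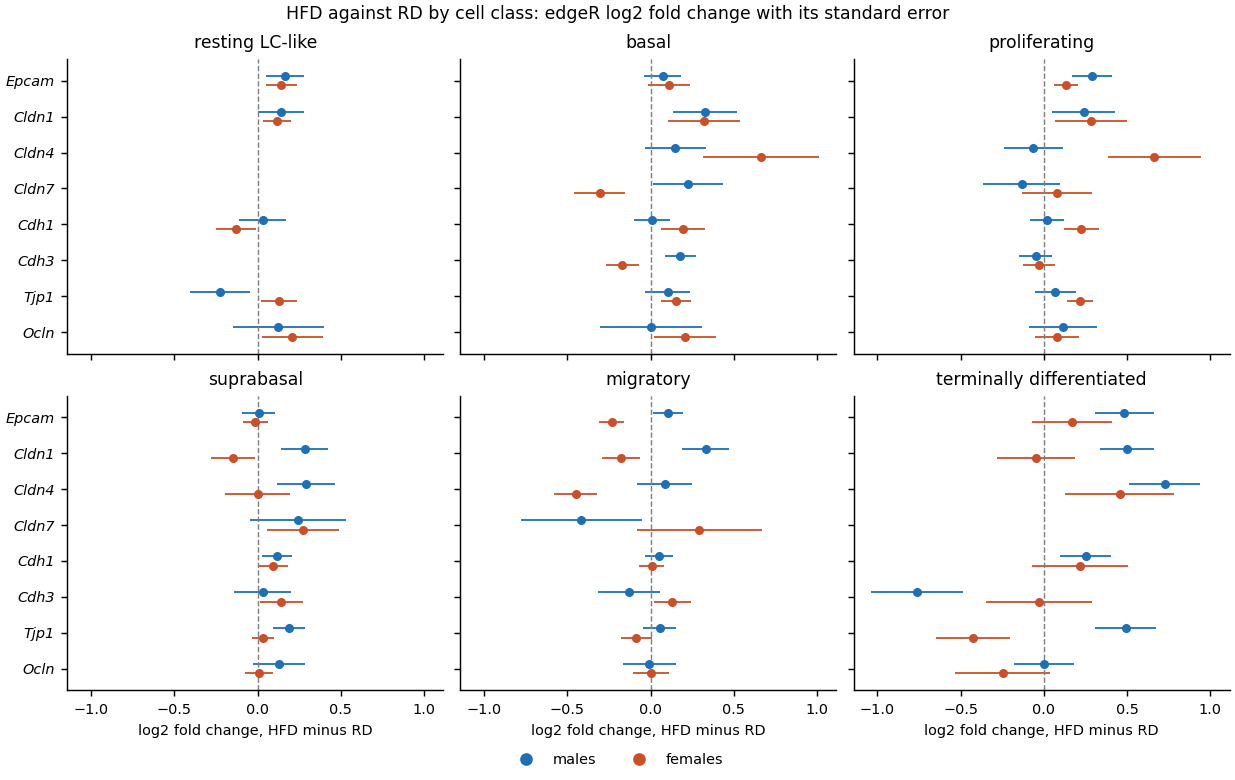
Log2 change of HFD minus RD (horizontal axis) with its standard error for each gene (vertical axis) in 6 cell classes, blue for males and orange for females. None of the points passed the test, and the widest spread is in terminally differentiated cells, where males run from -0.76 to 0.73.

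Of 710 tests of the list genes between diets 15 passed (2.11%), 7 of 338 in males and 8 of 372 in females. Snai2, a repressor of Cdh1, was lower on HFD in female basal cells (32.5 against 52.2 CPM, log2 change -0.69, adjusted p = 0.0240 by edgeR), where 0.928% of all genes passed, and in female proliferating cells (log2 change -0.77, adjusted p = 0.0230 by edgeR), where 1.7% passed. Nectin4 and Grhl1 were lower on HFD in female migratory cells (log2 change of -0.59 and -0.52) and in female suprabasal cells (-0.31 and -0.32). Klf4, a transcription factor of barrier formation, was lower in female migratory cells (-0.46), where 0.645% of all genes passed, and Esrp1 in female suprabasal cells (-0.30), where 3.14% passed. The others were 7 of 56 tests in terminally differentiated cells of males, where 5.22% of all genes passed and where Nectin3, Lmo7, St14, Cldn23 and Grhl1 were higher and Cd81 and Ovol2 lower. None of these 15 tests was in resting LC-like cells.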

How the data were processed

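The authors deposited, for each of the 12 libraries, the count of UMIs per gene and cell barcode, without normalization. They were made with Cell Ranger on mm10 (GRCm38); the submitters' processing notes name Cell Ranger 7.2.0 and Seurat 5.0.0, while the headers of the male files name 6.1.0. The sources used here do not say whether intron reads counted. Cells were kept that had 200 (males) or 500 (females) to 6000 genes, with mitochondrial UMIs at 5% or less.

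UMIs per cell were scaled to 10000, and 2000 variable genes, without 87 junction genes and regulators, gave 10 principal components, 20 neighbors and leidenalg 0.10.2 clusters per sex, at the lowest resolution in steps of 0.1 with at least 10 clusters. A cluster was named from marker lists when at least 3 markers were in at least 0.1 of its cells with a log2 fold of at least 0.5, the class with the highest mean fold of those that met this being taken. A suprabasal cluster of 12824 male cells and 2 of 7145 and 6805 female cells met it with 4 markers and a mean fold below 0. It stayed unnamed where its median UMIs were under 1/3 of its mice's and no marker was among its 10 leading genes, or where another class had as many there. The clusters are not the study's own, and a difference from its cells may come from rebuilt names. LC-like cells were clustered again. Doublets were scored on simulated doublets and removed only as an alternative.

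Counts were summed per mouse and class and tested in edgeR 4.0.16 (R 4.3.3) by quasi-likelihood after filterByExpr and TMM scaling. P-values were adjusted by Benjamini-Hochberg over all genes tested, with a threshold of 0.05. Diet was tested within each sex where every mouse had 10 cells, and the interaction over 12 mice. Classes were compared with mouse as a block, in at least 3 mice with 5 cells. The class sums of one mouse are not independent samples of mice. P-values of the diet tests measure the spread between these 3 mice per group. Those of the class comparisons measure the spread of differences between classes of the same mouse, over 6 mice of a sex with both diets together, or 4 females for Ccr7+ cells. CPM are UMIs of a gene per 1000000 UMIs of that class in that mouse. Between 112 and 392 resting LC-like cells per mouse carried 569674 to 2328293 UMIs. Shares of cells were also computed on cells thinned to 1500 UMIs. Intervals and limits for counts of 0 cover counting error only.

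The 8 genes, the lists and the tests were chosen with earlier results of these data known. Fold changes are given for the 8 genes, for diet only where a test passed or in resting LC-like cells for Epcam, Cldn1, Cdh1 and Tjp1, and for at most 3 called genes per list. Some genes of these lists enter the counts but are not reported here by name. Alternatives were DESeq2 1.42.0, no filter on low counts, 20 principal components, 10% mitochondrial UMIs, doublets removed, a replicate or no mouse block, each mouse left out and, chosen after seeing the data, library totals in place of TMM. The edgeR scripts were tested on simulated data.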

Additional observations from a re-analysis of the deposited data

Results flagged for a closer look

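Cdh1 in resting LC-like against basal cells moved in opposite directions in the sexes, with a log2 difference of 1.01 in males, higher in 6 of 6 mice, and -1.10 in females, lower in 6 of 6 mice. Cldn1 in proliferating against basal cells did the same at a smaller size, -0.20 in males, lower in 6 of 6 mice, and 0.21 in females, higher in 6 of 6 mice. With high doublet scores removed the latter was 0.089 (adjusted p = 0.0757 by edgeR). The male value was -0.31 with them removed and -0.11 with library totals. The difference between the sexes was not tested for either gene, and sex and counting software cannot be told apart in these files.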

How the results depend on the processing

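Depth limited the Ccr7+ cells, with 39 female and 15 male cells, and Cldn7. For diet, the calls among the 8 genes, 0 in the values reported, became 3 in males and 1 in females with DESeq2, and 4 and 2 with no filter on low counts. Leaving out a mouse gave 0 to 2 calls in each sex, the 2 arising without male RD replicate 3 and without female HFD replicate 2. The interaction of diet and sex gave 1 call with DESeq2, 4 with no filter, 2 with 10% mitochondrial UMIs, and 0 to 1 with a mouse left out, the 1 without female RD replicate 2. The shares of all genes called under these alternatives are not given here, so these counts are not read as a result. All diet calls of males fell in terminally differentiated cells, where 32.1% of all genes had an unadjusted p under 0.05 by edgeR. The change of Cdh1 in male resting LC-like cells was -0.00031 with no filter and between -0.075 and 0.14 with a mouse left out. A replicate block gave 0 calls in either sex and in the interaction (Epcam in resting LC-like cells 0.16 in males and 0.14 in females) and changed no call. Same-numbered mice of the 2 diets correlated between -0.030 and 0.106 in males and -0.124 and 0.080 in females. Differently numbered mice correlated between -0.082 and 0.045 in males and -0.103 and 0.180 in females. With 3 mice per group these values cannot decide whether the replicate numbers pair the mice.

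Between classes, the 5 genes called in proliferating against basal cells of males became 3 with DESeq2 and 2 without the mouse block, and the 5 in terminally differentiated against suprabasal cells of females became 8 with library totals. With 10% mitochondrial UMIs, Cldn4 in the latter comparison turned to 1.94, Cdh1 to 0.087 and Cdh3 to -0.62, and Cdh3 turned to -0.062 with doublets removed and to -0.82 with library totals. In the 10% mitochondrial setting the female terminally differentiated class also took in a cluster led by Wfdc21, Hrnr, Wfdc17 and Flg. With library totals Cldn4 of males turned to -0.41, Cldn1 to -0.47 and Tjp1 to -0.22 in the same comparison, and Ocln in suprabasal against basal cells of females to -0.028. Cldn4 in migratory against basal cells of females turned to -0.22 with 20 principal components and was no longer called with 10% mitochondrial UMIs (adjusted p = 0.115). Ocln in female Ccr7+ against resting cells was 0.14 with doublets removed, 0.0060 with 20 principal components and between -0.45 and 0.026 with a mouse left out. Ocln in female resting LC-like against basal cells was 0.30 with DESeq2 (adjusted p = 0.200) and 0.34 without the mouse block (adjusted p = 0.0508). Without that block, Epcam in suprabasal against basal cells of females (adjusted p = 0.0673) and Cldn4 in terminally differentiated against suprabasal cells of females (adjusted p = 0.0683) were also no longer called. For these changes the cause was not tested. Of the log2 differences of single genes between classes, 341 of 344 with a mouse left out and 469 of 493 under other alternatives kept their direction and side of the threshold. The number of the 8 genes called was the same in 53 of 64 and 66 of 91, and otherwise, beside the values above, changed by 1 or 2.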
